A study of Mus musculus with 2 samples.

Results

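The 8 genes described here encode enzymes that make asparagine and proline or that move nitrogen and carbon through glutamate: Asns, Aldh18a1, Pycr1, Gpt2, Got1, Got2, Glul and Pck2. They were chosen by name from the 26127 genes of the authors' deposited expression table, with their values in these data already known, so their differences are a description and support nothing. The study sequenced RNA of PS10 cells, a female mouse line of ICR strain labelled as extraembryonic endoderm stem (XEN) cells, which stand for the primitive endoderm of the blastocyst. The cells had been transfected, with a lipid reagent, with locked nucleic acid (LNA) directed at Gata6-AS, the noncoding RNA antisense to the endoderm factor gene Gata6, or with a control LNA; the sample titles call both reagents siRNA. Each condition is 1 library of 1 cell line, the sources used here state neither the time after transfection nor the LNA dose, and give no genotype beyond strain and sex. The values therefore compare 2 libraries, with no replicate check and no p-value of their own.

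Aspartate, asparagine, glutamate, glutamine, proline and alanine are linked by a small set of reactions. Aminotransferases pass the amino group of glutamate to oxaloacetate or pyruvate and so make aspartate and alanine; glutamine synthetase adds ammonia to glutamate, and asparagine synthetase uses glutamine to turn aspartate into asparagine. Proline is made from glutamate in the mitochondrion by a synthase and a reductase. Asns, Aldh18a1, Pycr1, Gpt2 and Pck2 are known targets of ATF4, the transcription factor that mammalian cells use when amino acids run short or the endoplasmic reticulum is stressed, whereas Got1, Got2 and Glul are mostly known for other roles, among them the malate-aspartate shuttle and the detoxification of ammonia.

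Levels are given in RPKM, reads per kilobase of a gene's length and per 1000000 reads, as the authors deposited them. RPKM is per length, so levels can be compared between genes. The depth read from the values was 1.04e+08 reads in the control library and 1.23e+08 reads in the Gata6-AS LNA library. All 8 enzyme genes passed the filter on low values, a mean over the 2 libraries of 1 RPKM or more. The targeted RNA, listed as 1010001N08Rik, was lower with the Gata6-AS LNA, at 5.83 against 10.1 RPKM. All 8 XEN markers looked up passed the same filter, and their summed level was 797 RPKM in the control and 553 RPKM with the Gata6-AS LNA. Gata4 (246 against 357 RPKM) and Sox7 (59.4 against 145 RPKM) made up much of that gap; 5 of the 8 had log2 differences below 0, while Dab2 (0.48), Hnf4a (0.30) and Foxa2 (0.03) lay above 0. Of 5 pluripotency markers only Nanog passed (4.61 and 5.07 RPKM), Sox2 and Esrrb were listed at 0, and none of 5 trophoblast or 6 fibroblast feeder markers did. The median difference of the XEN markers was -0.39, and its part in the enzyme values below was not tested.

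RNA of the enzyme that makes asparagine was lower in the Gata6-AS LNA library. Asns, asparagine synthetase, stood at 96.8 RPKM in the control library and at 41.5 RPKM in the Gata6-AS LNA library. That is 42.9% of control. The exact 95% interval of this ratio (Clopper-Pearson), based on no fewer than 27412 and 13948 reads, ran from 42.0% to 43.7%. This interval and those that follow cover counting error only and leave out the variation between cultures, and in RNA from whole cultures fewer cells that express a gene cannot be told apart from less RNA per cell. On the scale of log2(RPKM + 1), the difference was -1.20. This scale understates changes of low genes, strongly so near 1 RPKM. The 2-fold and 1.5-fold limits below apply to this scale and not to the RPKM ratio. In mm9 coordinates Asns spans 7625169 to 7643254 of chromosome 6 (minus strand), and no other feature of the table overlaps it.

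Of the genes that make proline, both members were lower. Aldh18a1, the bifunctional synthase that reduces glutamate to pyrroline-5-carboxylate, stood at 112 RPKM with the control LNA and 53.1 RPKM with the Gata6-AS LNA, or 47.5% of control (46.8% to 48.3%; log2 difference -1.06). Pycr1, the mitochondrial reductase that turns this product into proline, had the lowest level of the 8 genes, at 8.41 RPKM with the control LNA and 4.87 RPKM with the Gata6-AS LNA. Its level was 57.9% of control (54.9% to 61.1%), and its log2 difference was -0.68. In mm9, Aldh18a1 spans 40624747 to 40662953 of chromosome 19 and Pycr1 spans 120497026 to 120505083 of chromosome 11, both on the minus strand.

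Pck2, the mitochondrial phosphoenolpyruvate carboxykinase, which makes phosphoenolpyruvate from oxaloacetate, had the lowest level relative to control of the 8. It stood at 22.6 RPKM with the control LNA and 9.61 RPKM with the Gata6-AS LNA, which is 42.6% of control (41.0% to 44.3%), with a log2 difference of -1.15. The gene spans 56159103 to 56168854 of chromosome 14 in mm9, on the plus strand. Its interval overlaps that of Asns, so the counts do not separate the relative levels of these genes.

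The aminotransferases lay on both sides of the control level, and glutamine synthetase lay above it. Gpt2, the mitochondrial alanine aminotransferase, was at 10.7 RPKM with the control LNA and 8.76 RPKM with the Gata6-AS LNA, 81.8% of control (78.9% to 84.7%; log2 difference -0.26). Got1, the cytosolic aspartate aminotransferase, was at 64.1 and 66.5 RPKM, or 104% of control (102% to 106%; log2 difference 0.05). Got2, its mitochondrial counterpart, was higher, at 93.0 RPKM with the control LNA and 143 RPKM with the Gata6-AS LNA. This is 154% of control (152% to 156%), a log2 difference of 0.62. Glul, glutamine synthetase, had the highest level of the 8 in both libraries, 137 RPKM with the control LNA and 179 RPKM with the Gata6-AS LNA, or 131% of control (129% to 132%; log2 difference 0.39).

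In mm9, Gpt2 (plus strand) spans 88016475 to 88051459 and Got2 (minus strand) 98388034 to 98412447 of chromosome 8. Got1 (minus strand) spans 43574242 to 43599095 of chromosome 19, and Glul (plus strand) 155747074 to 155756853 of chromosome 1. The values of Got2 and Glul carry an uncertainty of assignment. RefSeq lists 2 pseudogenes named for Got2 (Got2-ps1 and Gm3922), neither with a row in the table, and the sources used here do not say how reads that map to several places were counted. The span of Glul overlaps 3 other features, of which 5830403L16Rik on the opposite strand had the highest level, 4.53 RPKM in the control, and the use of strand is not stated either. The other 7 genes overlap no other feature of the table.

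**Figure D1:**
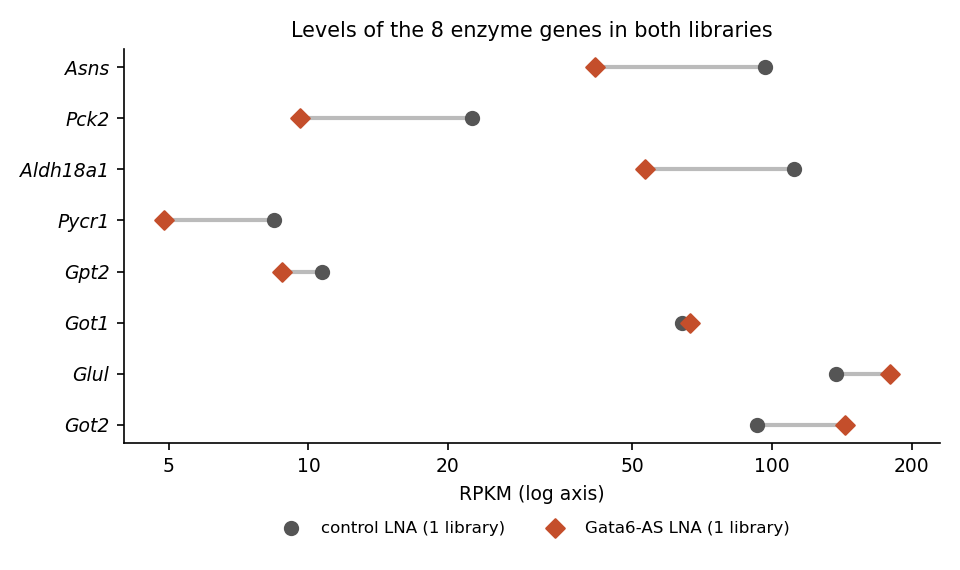
RPKM (log axis) of the 8 enzyme genes in the control LNA library (grey circles) and the Gata6-AS LNA library (orange diamonds), 1 library each and so without error bars, ordered by log2 difference. Asns, Pck2, Aldh18a1 and Pycr1 sit to the left in the Gata6-AS LNA library, Got1 hardly moves, and Glul and Got2 sit to the right.

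The order of the genes by level changed between the libraries. In the control, Aldh18a1 (112 RPKM) and Asns (96.8 RPKM) came after Glul and ahead of Got2 (93.0 RPKM) and Got1 (64.1 RPKM). In the Gata6-AS LNA library both aspartate aminotransferases, at 143 and 66.5 RPKM, stood above Aldh18a1 (53.1 RPKM) and Asns (41.5 RPKM). Pck2, Gpt2 and Pycr1 were the lowest of the 8 in this order in both libraries. With 1 library per condition the spread of these levels between cultures is unknown, so it cannot be said which neighbours in the order differ beyond it.

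Among all 10869 genes that passed the same filter, the median log2 difference was 0.05 and 58.0% of the differences lay above 0. The median of the 8 enzyme genes was -0.47, with 5 below 0 and 3 above. Asns, Pck2 and Aldh18a1, 3 of the 8, were at least 2-fold lower on this scale, against 0.451% of all genes, and none was at least 2-fold higher, against 0.331%. With a limit of 1.5-fold, Pycr1 joined them as the 4th lower gene, against 1.95% of all genes, and Got2 was the only higher one, against 3.42%. Since the genes were chosen with these values known, nothing is read from these shares. The differences of Asns, Pck2, Aldh18a1 and Pycr1 lay at percentiles 0.230, 0.267, 0.359 and 1.29 of all genes. Gpt2 lay at percentile 11.7 and Got1 at 50.7, while Glul lay at 89.8 and Got2 at 97.2. The difference of Got2 is near the 1.5-fold limit and was under it, at 0.57, when the median of all genes was set to 0.

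**Figure D2:**
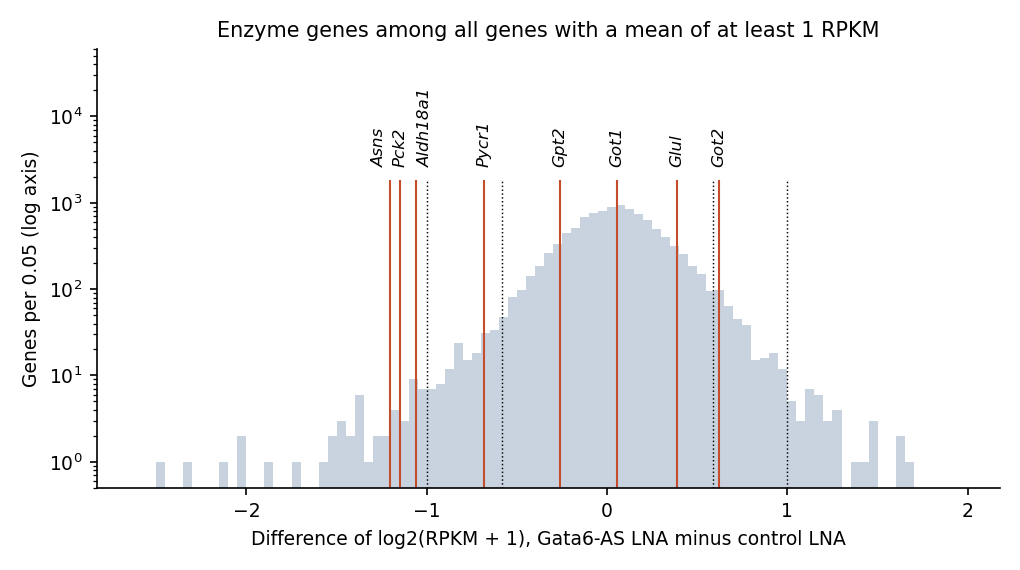
Histogram (log count axis) of the difference of log2(RPKM + 1), Gata6-AS LNA minus control LNA, over 10869 genes, with the 8 enzyme genes as orange lines and the 1.5-fold and 2-fold limits as dotted lines. Asns (-1.20), Pck2 (-1.15) and Aldh18a1 (-1.06) lie in the thin lower tail, Got1 (0.05) at the centre and Got2 (0.62) on the upper flank.

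In the authors' deposited table of differing genes, 5 of the 8 were listed: 4 lower, against 5.71% of the 10869 genes, and 1 higher, against 6.23%. In the authors' deposited table Pck2 had a log2 difference of -1.26 (p = 5.61e-05) and Asns -1.18 (p = 0.000252). The authors' deposited table gave -1.01 for Aldh18a1 (p = 0.00314), -0.85 for Pycr1 (p = 0.00399) and 0.68 for Got2 (p = 0.0301). Gpt2, Got1 and Glul were not in the authors' deposited table, which holds genes with a p of up to 0.07499. These p-values come from the same 2 libraries, and the sources used here name neither their test nor any adjustment.

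Promoters are shown to compare the 4 genes at least 1.5-fold lower in sequence. The stretches shown are the 250 bases before the start site that RefSeq gives (assembly GRCm38.p6, 5′ to 3′ on the strand of the gene), for all members that hold the motif described next and for Aldh18a1, the one of these 4 genes without it. ATF4 binds, with a C/EBP partner, to composite elements whose core can be written TGATGNAA. Capitals mark each match to TGATGNAA or, on the other strand, to TTNCATCA.
Asns (chr6:7693210-7693459, minus strand): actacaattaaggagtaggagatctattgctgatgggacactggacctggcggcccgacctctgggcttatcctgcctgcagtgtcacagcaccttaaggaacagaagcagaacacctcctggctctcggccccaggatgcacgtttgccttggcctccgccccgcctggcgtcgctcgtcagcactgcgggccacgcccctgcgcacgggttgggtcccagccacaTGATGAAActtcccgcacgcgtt
Pycr1 (chr11:120643749-120643998, minus strand): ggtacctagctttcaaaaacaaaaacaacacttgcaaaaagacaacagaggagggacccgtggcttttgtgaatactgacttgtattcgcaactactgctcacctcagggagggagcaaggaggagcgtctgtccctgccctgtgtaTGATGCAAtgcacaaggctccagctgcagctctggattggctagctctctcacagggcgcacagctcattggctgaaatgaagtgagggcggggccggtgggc
Pck2 (chr14:55540016-55540265, plus strand): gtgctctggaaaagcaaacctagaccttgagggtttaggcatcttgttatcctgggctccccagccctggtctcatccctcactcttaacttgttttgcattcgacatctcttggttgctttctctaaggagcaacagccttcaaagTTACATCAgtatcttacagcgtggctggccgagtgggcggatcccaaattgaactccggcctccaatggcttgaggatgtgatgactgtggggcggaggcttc
Got1 (chr19:43524606-43524855, minus strand): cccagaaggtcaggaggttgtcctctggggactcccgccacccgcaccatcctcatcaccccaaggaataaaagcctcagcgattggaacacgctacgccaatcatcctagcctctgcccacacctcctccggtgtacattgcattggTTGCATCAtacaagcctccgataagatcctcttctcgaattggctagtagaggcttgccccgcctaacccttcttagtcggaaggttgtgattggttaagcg
Aldh18a1 (chr19:40588464-40588713, minus strand): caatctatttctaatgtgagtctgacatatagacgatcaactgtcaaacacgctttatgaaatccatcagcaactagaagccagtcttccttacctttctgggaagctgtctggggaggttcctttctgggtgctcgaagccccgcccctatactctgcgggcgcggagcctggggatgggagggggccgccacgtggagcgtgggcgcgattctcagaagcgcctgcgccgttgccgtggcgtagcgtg

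All 8 genes had a RefSeq window of 300 bases, 250 before and 50 after the start site, and 4 of the 8 held the motif, once each, on either strand. Of all 32851 such windows, 3.97% held it, and of the 27025 genes with such windows, 4.51% held it in any window. The match lies 23 bases upstream of the start in Asns and reads TGATGAAA. It lies 103 bases upstream in Pycr1, as TGATGCAA on the strand of the gene. In Pck2 it begins 103 bases upstream, as TTACATCA, and in Got1 102 bases upstream, as TTGCATCA, both on the opposite strand. The match and the difference between the libraries did not go together in every gene. Got1 holds the same 8 letters as Pycr1, read from the other strand, and stood at 104% of control, whereas Aldh18a1 has no match in this window and stood at 47.5%. Gpt2, at 81.8% of control, has no match in its window, and neither have Got2 and Glul. A match is a description of letters and not evidence of binding, and a window without one says nothing about the factor or about sites elsewhere in the gene.

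Pycrl, which encodes a cytosolic pyrroline-5-carboxylate reductase, was at 11.9 RPKM with the control LNA and 13.6 RPKM with the Gata6-AS LNA, above Pycr1 in both libraries and with a difference of the opposite sign (0.18 against -0.68).

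For aspartate aminotransferase, Got2 made up 59.2% of the summed RPKM of Got1 and Got2 in the control and 68.3% in the Gata6-AS LNA library, with the sum at 134% of control. Gpt2 made up 94.8% and 92.3% of the summed alanine aminotransferase RPKM, as Gpt, the cytosolic form, stood at 0.591 and 0.736 RPKM. Pck2 was practically the sole carboxykinase gene detected, since Pck1, the cytosolic enzyme of liver gluconeogenesis, stood at 0.0141 and 0.0190 RPKM, from at least 5 and 8 reads. The summed carboxykinase RPKM was therefore 42.7% of control.

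**Figure D3:**
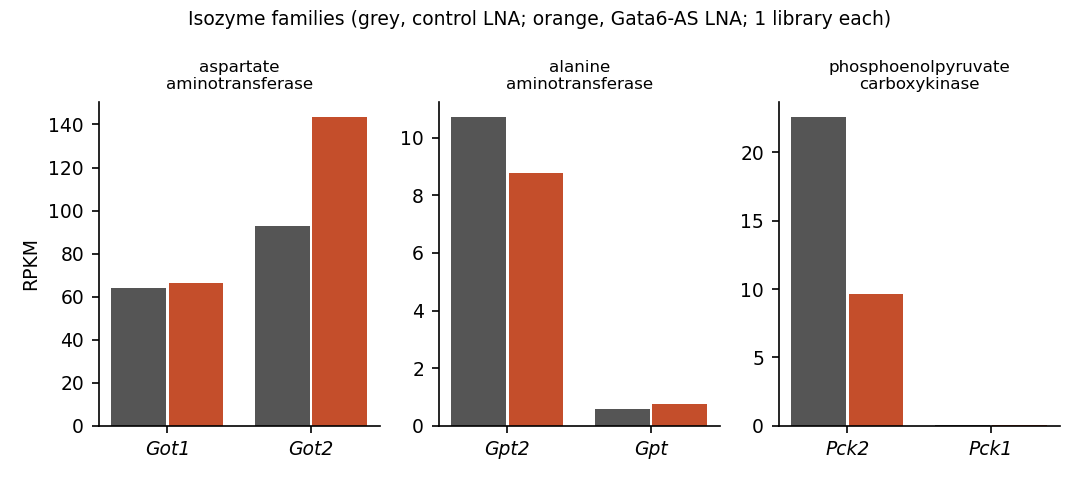
RPKM of each isozyme in 3 enzyme families, with grey bars for the control LNA library and orange bars for the Gata6-AS LNA library, 1 library each and each panel on its own axis from 0. Got2 exceeds Got1 in both libraries, Gpt2 exceeds Gpt, and Pck1 is too low to show beside Pck2.

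Other enzymes of the same pathways did not share the lower values of Asns, Aldh18a1 and Pycr1. Of 11 other genes of proline and ornithine metabolism, 7 were measured, which here means that they passed the filter, with a median log2 difference of 0.13. None was 1.5-fold lower, against 1.95% of all genes, and 2 were 1.5-fold higher, against 3.42%. Those were Aldh4a1, the mitochondrial dehydrogenase that oxidizes pyrroline-5-carboxylate back to glutamate, at 5.75 against 2.44 RPKM (0.97), and Pepd, the dipeptidase that frees proline from dipeptides, at 12.7 against 7.30 RPKM (0.73). Aldh4a1 stood at 235% of control, past 2-fold by the RPKM ratio but not on the log2(RPKM + 1) scale. Aldh4a1 and Aldh18a1 act on the same intermediate in opposite senses, and their differences had opposite signs. Oat, the ornithine aminotransferase that also yields this intermediate, stood at 62.3 against 61.7 RPKM (0.01), and Odc1, ornithine decarboxylase, at 164 against 173 RPKM (-0.07). Prodh, the proline dehydrogenase that opens proline breakdown, was very low, at 0.0658 against 0.0809 RPKM, from at least 28 and 29 reads.

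Of 11 other genes that make or use aspartate or asparagine, 7 were measured, with a median of 0.20, no gene 1.5-fold lower and 1 gene 1.5-fold higher. This gene was Cad, which uses aspartate and glutamine to start pyrimidine synthesis, at 18.3 against 9.28 RPKM (0.91). Adsl, an enzyme of purine synthesis, stood at 11.1 against 7.40 RPKM (0.53). Adssl1 (-0.34) and Adss (-0.19), which couple aspartate to inosine monophosphate, had the most negative differences. Of the glutamine amidotransferases other than Asns, all 9 measured of 10 lay above 0, as did 58.0% of all genes. Their median was 0.13, against 0.05 for all genes. Cad was again the 1 gene past 1.5-fold, and Pfas, of purine synthesis, followed at 6.97 against 4.77 RPKM (0.47). Asns was thus the one measured glutamine amidotransferase of those looked up with a lower value in the Gata6-AS LNA library.

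Among 18 other genes that make or use glutamate or glutamine, 11 were measured, with a median of 0.36, 1 at least 1.5-fold lower and 1 at least 1.5-fold higher. The lower gene was Psat1, the aminotransferase of serine synthesis, at 59.3 against 101 RPKM (-0.76). The higher gene was Gclm, the modifier subunit of glutamate-cysteine ligase, at 2.57 against 1.25 RPKM (0.66), and Gclc, the catalytic subunit, was at 5.23 against 3.43 RPKM (0.49). Gclm stood at 205% of control, likewise past 2-fold by the RPKM ratio only. Gls2, a glutaminase gene, was at 4.42 against 2.91 RPKM (0.47). Glud1, glutamate dehydrogenase, stood at 77.8 against 72.4 RPKM (0.10), and Aldh5a1 at -0.07.

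Around Pck2, 7 of 13 other genes at phosphoenolpyruvate, pyruvate, malate and oxaloacetate were measured, with a median of 0.36. Of these, 6 lay above 0, as did 58.0% of all genes. The cytosolic malate dehydrogenase gene Mdh1 was the 1 past 1.5-fold, at 47.3 against 28.0 RPKM (0.73), followed by Acly, which cleaves citrate, at 23.2 against 15.3 RPKM (0.57). Me2, the mitochondrial malic enzyme, was the 1 gene below 0, at 48.5 against 53.4 RPKM (-0.14). All 20 genes listed for the tricarboxylic acid cycle, which include the cytosolic forms Idh1 and Aco1, were measured, with a median of 0.14. The 1 past 1.5-fold was Idh1, the cytosolic isocitrate dehydrogenase gene (18.9 against 12.2 RPKM, 0.60). Dld (-0.27), Aco1 (-0.18), Sdhb (-0.11) and Dlst (-0.07) had the most negative differences there, and Idh3a was at 0.48. Of 8 mitochondrial carriers 7 were measured, with a median of 0.10 and none past 1.5-fold. The aspartate-glutamate carriers Slc25a12 and Slc25a13 were at -0.24 and -0.18, the oxoglutarate carrier Slc25a11 at -0.13, and the glutamate carrier Slc25a22 at 0.38.

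Groups of genes known to share the ATF4 response also had medians below 0, as did the XEN markers. Of all 10869 genes, 0.451% were at least 2-fold lower and 0.331% at least 2-fold higher. These lists were also chosen with earlier results of these data known, so nothing is read from their counts. Of 18 genes of the ATF4 arm, 17 were measured, with a median of -0.26, 3 at least 2-fold lower and none 2-fold higher. Lowest were the chromatin protein gene Nupr1 (-2.49), the transcription factor gene Atf5 (-1.53), the pseudokinase gene Trib3 (-1.39) and the ATF4 partner gene Cebpg (-0.88). Highest were Ddit3 (0.48), which encodes a stress transcription factor, and the kinase gene Eif2ak3 (0.30). The RNA of Atf4 itself, named here after its value was seen, stood at 136 against 138 RPKM (-0.02), and its protein was not measured.

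Of 14 serine and folate one-carbon genes, 12 were measured, with a median of -0.33, 3 at least 2-fold lower and 1 at least 2-fold higher. Mthfd2 (-1.38), Psph (-1.13), Shmt2 (-1.08) and Aldh1l2 (-0.91) had the most negative differences, and Mthfd1 (1.16) and Shmt1 (0.66), both cytosolic, the most positive. Aldh1l2, a low gene, stood at 0.443 against 1.71 RPKM or 25.9% of control, further below control than Mthfd2 at 37.7%. All 20 cytosolic aminoacyl-tRNA synthetase genes were measured, with a median of -0.54, 1 at least 2-fold lower and none 2-fold higher. Wars (-1.16), Lars (-0.87), Gars (-0.86) and Nars (-0.82) were in front there, while Kars (0.34) and Hars (0.26) lay above 0. Nars charges asparagine, and stood at 61.0 against 109 RPKM. Eprs and Qars, which charge proline with glutamate and glutamine, stood at 33.3 against 39.4 RPKM (-0.24) and 38.4 against 34.7 RPKM (0.14). Both were named after their values were seen. Of 24 amino acid transporter genes, 17 were measured, with a median of -0.34 and 3 at least 2-fold lower. Slc1a4 (-1.75), Slc7a5 (-1.55), Slc7a1 (-1.09) and Slc36a4 (-0.83), which carries proline among others, had the most negative differences. Slc36a4 stood at 48.1% of control, past 2-fold by the RPKM ratio but not on the log2(RPKM + 1) scale. Slc38a10 (0.53) and Slc7a11 (0.44) had the most positive. The median of the 8 enzymes, -0.47, lies between those of the synthetases and the transporters, and no difference between these groups was tested.

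**Figure D4:**
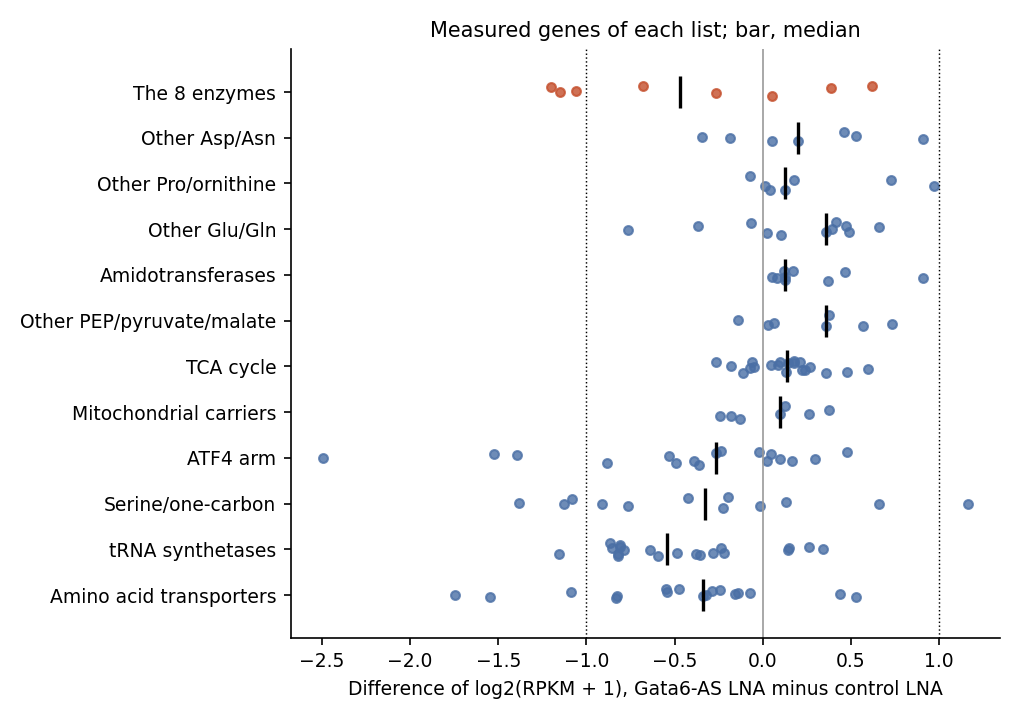
Difference of log2(RPKM + 1), Gata6-AS LNA minus control LNA, for each measured gene of the 8 enzymes (orange) and of 11 other lists (blue), with a black bar at each median and dotted lines at 2-fold. The enzymes spread from -1.20 to 0.62, the other lists of the same pathways have medians from 0.10 to 0.36, and the ATF4 arm, serine, synthetase and transporter lists have medians from -0.54 to -0.26.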

How the data were processed

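Total RNA was extracted with TRIzol and a column kit, and libraries were made with an Illumina kit, per the labels' protocols. The authors' deposited RPKM values, per the file headers, were used as they stand. TopHat and mm9 are named in the submitters' processing notes; the sources used here do not state the counting tool, annotation, strand use or treatment of multiply mapped reads. The other deposited table gives the authors' log2 values, log2 differences and p-values of 2099 genes, all of which were joined by position.

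The samples were grouped by title, 1 library per group, so no test between conditions was made. The measure was the difference of log2(RPKM + 1) on the RPKM values, for genes whose mean reached 1 RPKM. Size limits of 2-fold and 1.5-fold on that scale stood in place of a test. Depth came from features with a span under 3000 bp, where RPKM times length rises in equal steps of 1 read (834 of 2094 in the control, 890 of 2211 in the other library). The smallest whole reads giving both RPKM values at one length up to 30000 bp (relative tolerance 3e-07 plus 0.0002 reads) gave exact (Clopper-Pearson) 95% intervals of the ratio. PCR reads are not independent molecules. The read recovery and the differences were tested on simulated data with known answers.

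The members and the 15 other lists were chosen with earlier results of these data known. The 199 list entries were found by symbol (198) or by a RefSeq synonym (1); of 59 symbols on several rows, the row with the highest mean was used. The named genes were all members and their isozymes, the marker genes, and in each other list up to 4 with the most negative and 2 with the most positive difference. The targeted RNA, 1010001N08Rik, lies outside this rule and was named as the target of the LNA. Any others named were chosen after their values were seen, namely Atf4, Eprs, Qars, Mdh2 and the features overlapping Glul. Some genes under this rule are not reported here. The promoter motif was likewise chosen with these results known. With 2 libraries a most similar pattern is not defined, so no such gene is named. Python 3.11.15, pandas 2.3.3, numpy 2.4.6 and scipy 1.17.1 were used. The alternatives tried were pseudocounts of 0.1 and 0.5 RPKM, subtraction of the median of all genes, scaling of both libraries to 1000000 summed RPKM, the authors' log2 differences, no filter, and a mean of at least 5 RPKM.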

Additional observations from a re-analysis of the deposited data

How the results depend on the processing

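All 8 enzyme genes kept the sign of their difference under all alternatives that gave a value; the authors' deposited table gave none for Gpt2, Got1 and Glul. Asns ranged from -1.25 to -1.18, Pck2 from -1.26 to -1.15, Aldh18a1 from -1.11 to -1.01, Pycr1 from -0.85 to -0.68 and Got2 from 0.57 to 0.68. Got1 ranged from 0.00466 to 0.0536, and its lowest value came with the median of all genes set to 0. The count at least 2-fold lower was 3 under every alternative, and the count past 1.5-fold was 5, or 4 with the median of all genes set to 0, which took Got2 under the limit. The median of the members was -0.55 with each library scaled to 1000000 summed RPKM. It was -1.01 with the log2 differences of the authors' deposited table, which lists only 5 of the 8, so fewer genes enter that median. The filters changed no member value, because every member has a mean above 5 RPKM. No paired analysis was possible because each group has 1 library, and for the same reason no replicate could be left out. Depth is not what limits these values, since the interval from counting is narrow for all 8 genes; the variation between cultures was not measured.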

Other observations

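The malate-aspartate shuttle, which carries reducing equivalents into the mitochondrion, runs on 4 enzymes and 3 carriers from the groups above, a grouping made after the values were seen. All 4 enzyme genes lay above 0 in the Gata6-AS LNA library, as did 58.0% of all 10869 genes. They were Mdh1 (0.73), Got2 (0.62), Mdh2 (0.36) and Got1 (0.05), the last of them at the median of all genes (0.05). The 3 carrier genes lay below 0, as did 4563 of all 10869 genes: Slc25a12 (-0.24), Slc25a13 (-0.18) and Slc25a11 (-0.13). The values come from 1 library per condition, and the difference between enzymes and carriers was not tested.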
